A study of Homo sapiens with 2 samples.

Results

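The genes described here are those of homologous recombination, the Fanconi anemia pathway, mismatch repair and DNA end joining, in HuES53 and HuES64, diploid human embryonic stem cell lines. They were chosen by symbol alone: FANC with a letter from A to M, BRCA1 and BRCA2, every symbol that begins with RAD50 to RAD54 or with XRCC and a digit, and MSH or MLH with a digit. The rule found 37 of the 25436 gene symbols in the table. It takes RAD51L3-RFFL, a read-through of RAD51D and its neighbour, and XRCC6BP1 by their names, and it leaves out FANCD2 and other partners, which are given further on from separate lists.

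The study derived haploid human embryonic stem cells, and both lines analysed here were controls from embryos made by in vitro fertilization. Both were undifferentiated and below passage 20 per the labels, with no treatment or genetic change given for either. Polyadenylated RNA of 1 library per line was sequenced, so no difference between the lines has a replicate check and no test could be made. Values are FPKM, fragments scaled by transcript length and by library size.

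Cells meet DNA breaks, crosslinks and copying errors in every S phase, and several pathways share the work. In homologous recombination, BRCA1 prepares the broken end, and BRCA2 and its partners then enable the strand exchange that copies from the sister chromatid. The Fanconi anemia complex marks crosslinks for removal, Ku and its partners rejoin ends without a template, and heterodimers of MSH and MLH proteins find and remove mismatched bases after replication. Embryonic stem cells divide fast, spend much of their cycle in S phase and are known to express many of these genes at high levels.

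In the whole table the depth, estimated from the steps of the lowest values, was about 18.3 fragments per FPKM and kilobase in HuES53 and 14.99 in HuES64. The label was checked against 8 genes of undifferentiated pluripotent cells, whose lowest members were NANOG at 94.4 FPKM in HuES53 and 84.7 FPKM in HuES64 and ZFP42 at 99.9 FPKM in HuES53 and 57.0 FPKM in HuES64. Summed over 12 fibroblast and feeder genes, the level was 1170 FPKM in HuES53 and 1400 FPKM in HuES64, with DCN lowest at 0.199 FPKM in HuES53 and 0.438 FPKM in HuES64 and none at 0 in both. Highest in that sum were VIM, at 588 FPKM in HuES53 and 736 FPKM in HuES64, and THY1, at 243 FPKM in HuES53 and 227 FPKM in HuES64. Over 10 germ cell genes the summed level was 8.53 FPKM in HuES53 and 7.32 FPKM in HuES64, and over 6 neuroectoderm genes 2.07 FPKM in HuES53 and 1.23 FPKM in HuES64. Over 6 endoderm genes it was 115 FPKM in HuES53 and 61.96 FPKM in HuES64, and over 6 mesoderm genes 27.1 FPKM in HuES53 and 14.6 FPKM in HuES64. Of the 6 endoderm genes 5 were higher in HuES53, with CXCR4 highest at 68.1 FPKM in HuES53 and 26.3 FPKM in HuES64. SOX17 was lower in HuES53, at 6.89 FPKM against 10.6 FPKM in HuES64. Of the mesoderm genes, HAND1 was lower in HuES53, at 1.39 FPKM against 2.21 FPKM in HuES64. In bulk RNA, fewer cells of a type and less RNA per cell cannot be told apart.

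Nearly all of the repair genes were expressed in both lines. A total of 35 of 37 reached 1 FPKM in HuES53, and 34 of 37 did so in HuES64. The exceptions were MSH4, listed at 0 in both lines, RAD51AP2, at 0.0942 FPKM in HuES53 and 0.0576 FPKM in HuES64, and BRCA2, which stood just under 1 FPKM in HuES64. Levels spanned more than 2 orders of magnitude, with XRCC6 and XRCC5 at the top and RAD51L3-RFFL, RAD54L2, FANCB, FANCM and BRCA2 near 1 to 2 FPKM at the bottom of the tested genes. As a set they were not far above other genes. The median of the 35 tested repair genes was 11.97 FPKM in HuES53 and 12.95 FPKM in HuES64, against 11.05 FPKM and 10.38 FPKM for all genes tested. Of the 35, 3 were in the top decile of all genes tested and 8 in the bottom quartile. The repair genes kept nearly the same order in HuES53 and HuES64. Over the 35 genes whose mean reached 1 FPKM, Spearman's rho between the levels was 0.985, genes of the same libraries not being independent points. XRCC6, XRCC5, MSH6 and XRCC1 were among the 5 highest genes in both lines.

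**Figure D1:**
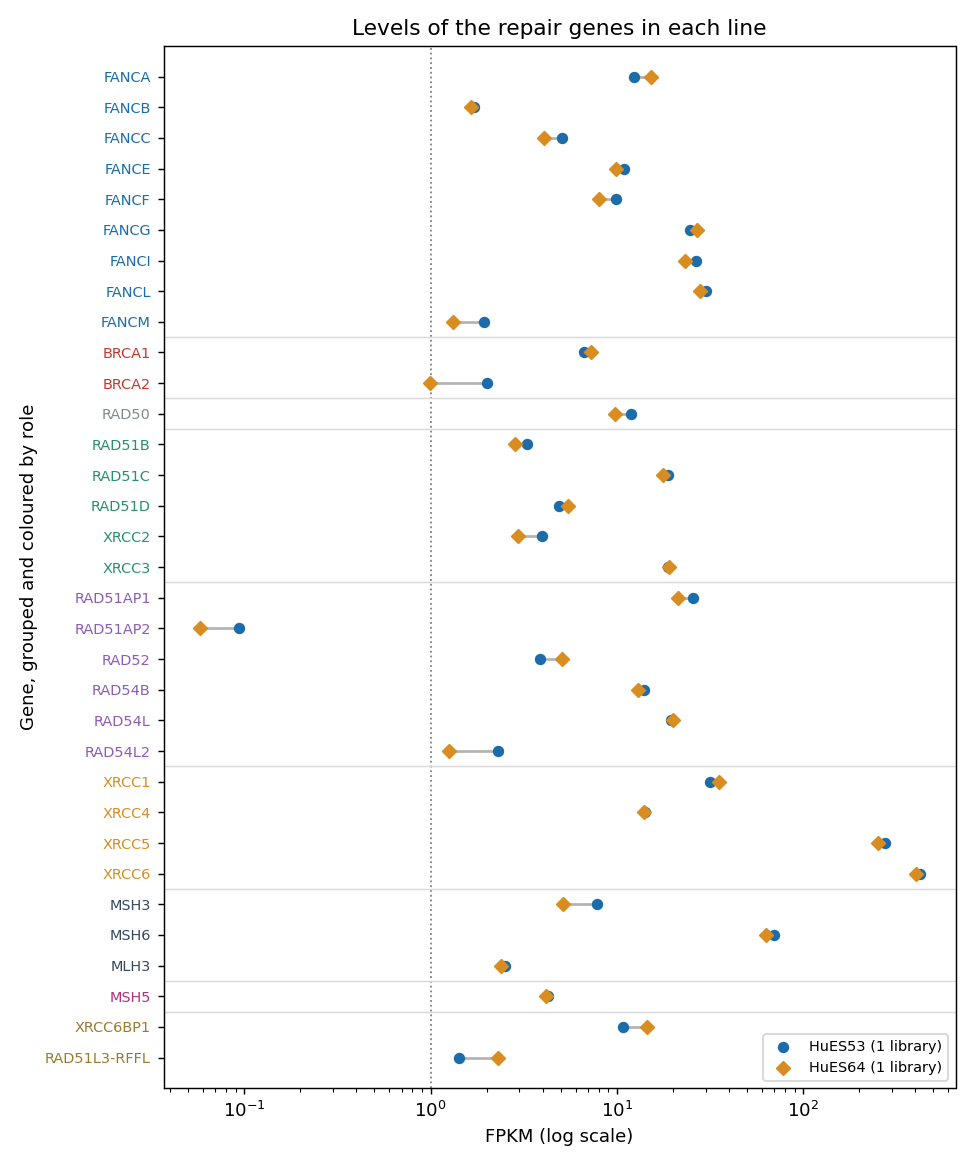
FPKM of the repair genes named in the text on a log axis, with HuES53 as circles and HuES64 as diamonds, 1 library each. Genes are grouped by role, the dotted line marks 1 FPKM, and MSH4, listed at 0 in both lines, is not drawn. XRCC5 and XRCC6 stand apart at the right, and the markers of most genes touch or lie side by side.

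On the log2(FPKM + 1) scale no repair gene differed 2-fold between the lines, and only BRCA2 did so by its plain ratio of FPKM, 2.03. Differences are given as log2(FPKM + 1), HuES53 minus HuES64, wherever the mean of the lines reached 1 FPKM, and 2-fold is a fixed size, not a threshold of significance. Of 13790 genes tested, 2.15% were past 2-fold towards HuES53 and 1.70% past 2-fold towards HuES64, so that 0 of 35 repair genes past that size is close to the background. The repair genes ran from -0.45 (RAD51L3-RFFL) to 0.60 (BRCA2), and 83.8% of all genes tested lay within that larger size. Their standard deviation was 0.25, against 0.56 for all genes, which ran from -8.21 to 7.51. Those extremes were microRNA genes, and the middle 50% of all genes tested lay between -0.26 and 0.32. A standard deviation like that of the repair genes was not particular to the set. The standard deviation was 0.24 for damage signalling genes and 0.25 for S phase genes, both described further on, and 0.38 for all other repair genes listed. A total of 27 of 35 lay within 1.25-fold, against 54.9% of all genes. Higher in HuES53 were 24 of 35, or 31 of 35 with TPM scaling and 22 with median of ratios scaling, where 52.5% of all genes were above 0 with the deposited values, 72.0% with TPM scaling and 49.9% with median of ratios scaling. The median was 0.08 against 0.03 for all genes. TPM scaling raised the median of all genes to 0.25 and that of the repair genes to 0.32, and 22 of 35 with the deposited values and 20 of 35 with TPM scaling lay above the median of all genes.

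Counting error alone was estimated from the depth and the median transcript length of each gene, and it does not cover variation between cultures. Its standard error on the log2 scale ran from 0.017 for XRCC5 to 0.31 for RAD51L3-RFFL. The approximate 95% counting interval lay above 0 for 11 genes, among them BRCA2, RAD54L2, MSH3, FANCM, XRCC2, FANCF, RAD51AP1, MSH6, XRCC5 and XRCC6. It lay below 0 for FANCA and XRCC6BP1 and spanned 0 for the other genes. Once the trend with GC content and length described further on was removed, FANCM (-0.10), XRCC2 (-0.01), MSH6 (-0.15) and XRCC5 (-0.17) stood below 0 and XRCC6 at 0.00. For the genes whose interval spanned 0, which include RAD51B, RAD51C, RAD51D and XRCC3, a difference was not detectable at this depth. The loci of 11 members overlap another locus of the table, namely those of FANCA, FANCI, FANCL, MSH3, MSH5, MSH6, RAD50, RAD51D, RAD51L3-RFFL, RAD54L and XRCC3. Fragments from such overlaps could be counted for either gene, since the strand setting is not given in the sources used here.

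**Figure D2:**
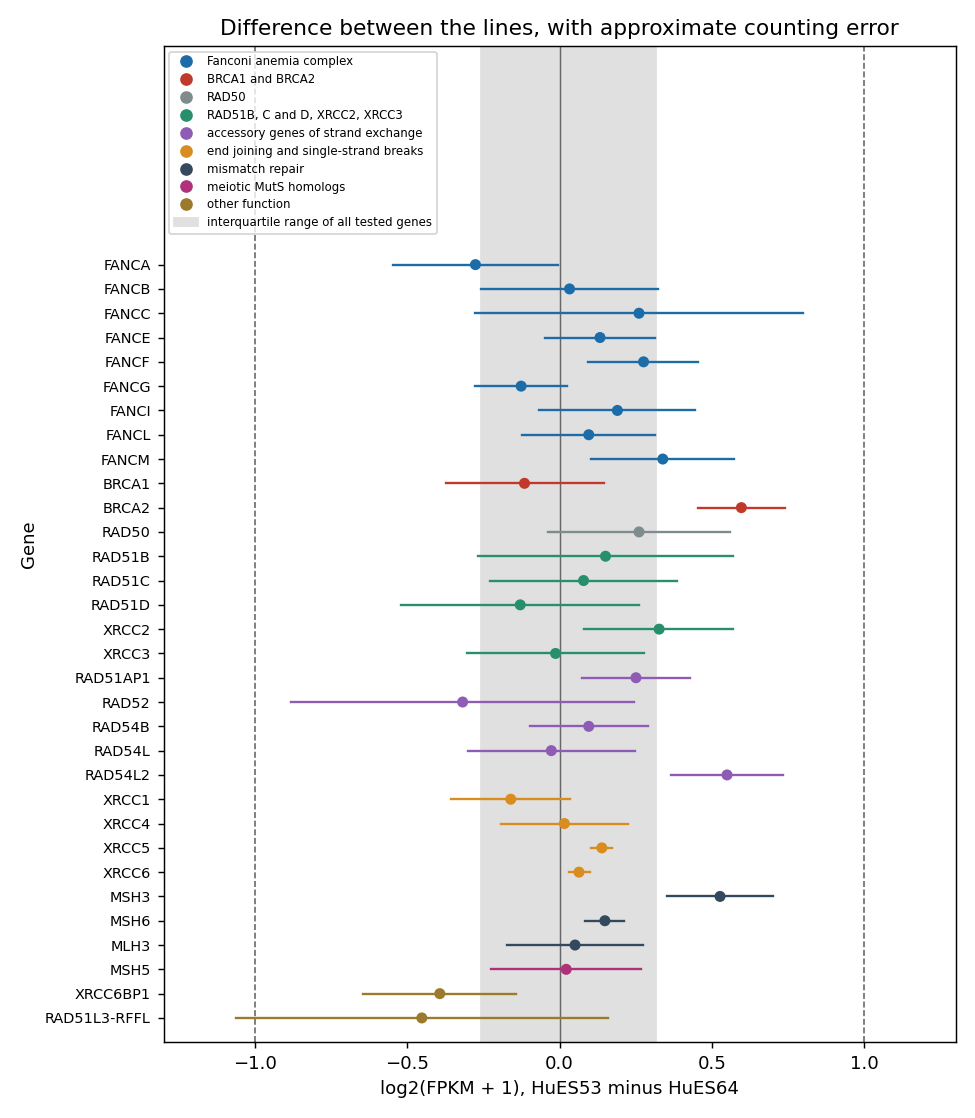
Difference of the repair genes named in the text in log2(FPKM + 1), HuES53 minus HuES64, coloured by role. Bars are approximate 95% counting intervals from 1 library per line, the grey band is the interquartile range of all 13790 genes tested (-0.26 to 0.32), and dashed lines mark 2-fold. BRCA2, RAD54L2 and MSH3 lie farthest to the right, and no point reaches a dashed line.

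The mismatch repair genes MSH6, MSH3 and MLH3 stood far apart in level. MSH6, which recognises single mismatches, stood at 69.8 FPKM in HuES53 and 62.8 FPKM in HuES64. MSH3, which recognises larger loops, had 7.81 FPKM in HuES53 and 5.11 FPKM in HuES64, a difference of 0.53 or 1.44-fold. MSH6 was thus 8.94 times as high as MSH3 in HuES53 and 12.3 times in HuES64, on the FPKM scale. MLH3, also known from meiotic crossing over, stood at 2.51 FPKM in HuES53 and 2.39 FPKM in HuES64. PMS2, a MutL subunit gene and no member of the set, stood at 5.39 FPKM in HuES53 and 5.20 FPKM in HuES64. The median of the 5 mismatch repair genes was 0.15, and 4 of 5 were higher in HuES53, 5 of 5 with TPM scaling and 2 of 5 once the trend was removed.

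Neighbouring genes gave a mixed picture. Of 16 pairs of a repair gene and a neighbour that overlaps it or lies within 1000 bases, read-through genes left out, 9 had the same direction and 6 differed by at most 0.1. In the same direction but unequal, MOSPD2, 342 bases from FANCB, stood at 6.87 FPKM in HuES53 and 3.44 FPKM in HuES64, while FANCB had 1.71 FPKM in HuES53 and 1.65 FPKM in HuES64. TMEM167A, 44 bases from XRCC4, stood at 58.4 FPKM in HuES53 and 40.9 FPKM in HuES64, while XRCC4 had 14.1 FPKM in HuES53 and 13.9 FPKM in HuES64. RAD54L and its overlapping neighbour LRRC41 were both nearly level, the neighbour at 43.9 FPKM in HuES53 and 45.8 FPKM in HuES64.

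Start regions of the repair genes were searched for the letters of E2F sites, since E2F factors switch on many replication and repair genes at the entry to S phase. The words TTTCGCGC, TTTGGCGC, TTTCCCGC and TTTGCCGC were looked for on both strands, from 250 bases before to 50 bases after each start in RefSeq (GRCh38.p14). Of the 37 genes, 30 had a start region in that table, and 6 of the 30 held at least 1 word in at least 1 start region, against 3.99% of the 27305 symbols in the table (3.31% of all 35116 start regions). The words of 5 of them are shown in 30-base windows, read 5′ to 3′ on the strand of the gene, to show how the words sit; capitals mark the word.
FANCC: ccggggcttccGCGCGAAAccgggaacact
FANCA: actacaccgcgGCGGCAAAgccaaacgcaa
MSH6: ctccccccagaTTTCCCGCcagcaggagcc
XRCC2: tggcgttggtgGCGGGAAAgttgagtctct
XRCC6: tgtccaagttggtcgcttccctGCGCCAAA
The FANCC window lies at chr9:95317863-95317892 and that of FANCA at chr16:89816801-89816830, both on the minus strand. That of MSH6 is at chr2:47783137-47783166 on the plus strand, that of XRCC2 at chr7:152676102-152676131 on the minus strand, and that of XRCC6 at chr22:41621315-41621344 on the plus strand. A match is a stretch of letters and not a shown site, and of these 6 genes only FANCA, at -0.28, lay below 0.

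Genes of the Fanconi anemia complex differed little between the lines but widely among themselves. FANCL, the ubiquitin ligase of the core complex, had 30.02 FPKM in HuES53 and 28.03 FPKM in HuES64. FANCG, a core subunit that binds FANCA, stood at 24.6 FPKM in HuES53 and 27.0 FPKM in HuES64. FANCI, the partner of FANCD2 in the pair that the complex ubiquitinates, stood at 26.6 FPKM in HuES53 and 23.2 FPKM in HuES64. FANCD2 itself, no member of the set, stood at 21.7 FPKM in HuES53 and 19.1 FPKM in HuES64, so that FANCI was 1.23 times as high in HuES53 and 1.22 times in HuES64. FANCA, at 12.4 FPKM in HuES53 and 15.2 FPKM in HuES64, was the gene of these 9 that leaned most towards HuES64, and it stayed higher there with TPM scaling (-0.05). It overlaps ZNF276 in the table. FANCE and FANCF, which link parts of the core complex, stood at 10.95 FPKM in HuES53 and 9.90 FPKM in HuES64 and at 9.86 FPKM in HuES53 and 7.97 FPKM in HuES64. The lowest were FANCC (5.07 FPKM in HuES53 and 4.07 FPKM in HuES64), FANCB (1.71 FPKM in HuES53 and 1.65 FPKM in HuES64), the only member on chromosome X, and FANCM (1.93 FPKM in HuES53 and 1.31 FPKM in HuES64), a translocase that recruits the core to DNA. FANCL was 17.6 times as high as FANCB in HuES53 and 17.03 times in HuES64, although both encode subunits of the same module. Of the 9 genes 7 were higher in HuES53, 8 with TPM scaling and 5 once the trend was removed, and their median was 0.13, or 0.04 with the trend removed.

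BRCA2 had the largest difference of the set with the deposited values, and BRCA1 leaned the other way. The counting interval of BRCA1, -0.374 to 0.145, spanned 0, and BRCA2 stood at 0.12 once the trend was removed. BRCA2, a core factor of homologous recombination, had 2.01 FPKM in HuES53 and 0.992 FPKM in HuES64, a plain ratio of 2.03. The pseudocount lowers this to 0.60 on the log2 scale, or 1.51-fold, with a counting interval of 0.45 to 0.74, and with a pseudocount of 0.1 FPKM it was 0.95. BRCA1, a ubiquitin ligase with BARD1, had 6.64 FPKM in HuES53 and 7.28 FPKM in HuES64, and with TPM scaling it was higher in HuES53 (0.11). BARD1, its obligate partner and no member of the set, stood at 5.36 FPKM in HuES53 and 1.57 FPKM in HuES64, a plain ratio of 3.41 or 2.47-fold on the log2(FPKM + 1) scale, and was the only one of 136 other repair genes tested that was 2-fold higher there. On the FPKM scale BARD1 was thus 0.807 of BRCA1 in HuES53 and 0.216 in HuES64. PALB2, which bridges BRCA1 and BRCA2, stood at 9.34 FPKM in HuES53 and 8.80 FPKM in HuES64. BRCA2 lies at 32889617 to 32973809 of chromosome 13, in the build of the deposited table, which is not named in the sources used here. Its median transcript length, 11485 bases, is the longest of the set, and its GC content was 36.2%, the lowest of the tested genes together with that of XRCC4.

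The paralog genes RAD51B, RAD51C, RAD51D, XRCC2 and XRCC3, which act together in recombination, were close to level, XRCC2 least so with the deposited values. RAD51C, which belongs to both paralog complexes, stood at 18.8 FPKM in HuES53 and 17.7 FPKM in HuES64, and its partner XRCC3 at 18.8 FPKM in HuES53 and 18.97 FPKM in HuES64. The other paralogs formed a lower group, with RAD51D at 4.92 FPKM in HuES53 and 5.47 FPKM in HuES64, XRCC2 at 3.95 FPKM in HuES53 and 2.95 FPKM in HuES64, and RAD51B at 3.28 FPKM in HuES53 and 2.85 FPKM in HuES64. XRCC2 had the largest difference of these 5, at 0.33, but stood at -0.01 once the trend was removed, when XRCC3 was the largest at 0.20. RAD51C and XRCC3 thus stood at least 3 times above RAD51B, RAD51D and XRCC2, which join RAD51C in the 4-member complex, in both lines. RAD50, the long coiled-coil subunit that holds broken ends together, had 11.97 FPKM in HuES53 and 9.83 FPKM in HuES64. Its partners, no members of the set, were MRE11A at 10.5 FPKM in HuES53 and 7.02 FPKM in HuES64 and NBN at 12.9 FPKM in HuES53 and 8.43 FPKM in HuES64. The counting interval of RAD50 spanned 0. Its difference of 0.26 was 0.16 once the trend was removed, and -0.14 when the trend was taken from the longest transcript of each gene.

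Accessory genes of strand exchange differed widely in level. RAD51AP1, which helps strands to pair, had 25.5 FPKM in HuES53 and 21.3 FPKM in HuES64. The translocases RAD54L and RAD54B, which act on double-stranded DNA, stood at 19.5 FPKM in HuES53 and 19.9 FPKM in HuES64 and at 13.9 FPKM in HuES53 and 12.9 FPKM in HuES64. RAD52, which anneals single strands, had 3.88 FPKM in HuES53 and 5.08 FPKM in HuES64, and its counting interval spanned 0. RAD54L2, a relative of RAD54L best known as a partner of the androgen receptor, had 2.31 FPKM in HuES53 and 1.26 FPKM in HuES64, a plain ratio of 1.83 and a difference of 0.55. At a GC content of 52.4% it lay farther above the genes of its GC group than any other member once the trend was removed, at 0.32. RAD51AP2 was near 0, with an estimated 6.07 fragments in HuES53 and 3.04 in HuES64.

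The genes of Ku were the highest of the set. XRCC6 (Ku70) had 421 FPKM in HuES53 and 402 FPKM in HuES64, above 98.3% of all genes tested. XRCC5 (Ku80) stood at 276 FPKM in HuES53 and 250 FPKM in HuES64, and the ratio of XRCC6 to XRCC5 was 1.52 in HuES53 and 1.61 in HuES64. XRCC4, the scaffold that holds the ligase LIG4, stood at 14.1 FPKM in HuES53 and 13.9 FPKM in HuES64, so that XRCC6 was 29.9 times as high in HuES53 and 28.9 times in HuES64. LIG4 stood at 2.85 FPKM in HuES53 and 2.51 FPKM in HuES64, and PRKDC, the kinase that Ku recruits, at 28.1 FPKM in HuES53 and 24.3 FPKM in HuES64. XRCC1, the scaffold of single-strand break repair and a partner of LIG3, had 31.5 FPKM in HuES53 and 35.3 FPKM in HuES64, against 26.4 FPKM in HuES53 and 26.6 FPKM in HuES64 for LIG3. XRCC1 was lower in HuES53 with the deposited values (-0.16) and higher there with TPM scaling (0.08).

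Of the meiotic MutS pair, MSH5 was detected and MSH4 was not. MSH4 was listed at 0 in both lines, while MSH5, with which it forms a dimer at meiotic crossovers, had 4.25 FPKM in HuES53 and 4.17 FPKM in HuES64. The MSH5 locus lies within that of the read-through MSH5-C6orf26, which had 1.51 FPKM in HuES53 and 3.42 FPKM in HuES64, so part of the signal of either may belong to the other. Of 20 other meiotic recombination genes found in the table, 5 reached a mean of 1 FPKM, and 4 were listed at 0 in both lines, namely SPO11, PRDM9, HORMAD1 and SPATA22. The 5 were MND1 (38.0 FPKM in HuES53 and 51.3 FPKM in HuES64), PSMC3IP (13.7 FPKM in HuES53 and 14.4 FPKM in HuES64), REC8 (19.4 FPKM in HuES53 and 12.8 FPKM in HuES64), DMC1 (4.36 FPKM in HuES53 and 2.77 FPKM in HuES64) and STAG3 (2.64 FPKM in HuES53 and 1.55 FPKM in HuES64). MND1 and PSMC3IP encode a pair that assists DMC1, the meiotic recombinase.

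The members that the rule takes by name alone leaned towards HuES64. XRCC6BP1, a gene now called ATP23 and related to a mitochondrial metallopeptidase of yeast, had 10.8 FPKM in HuES53 and 14.5 FPKM in HuES64, a difference of -0.39. RAD51L3-RFFL had 1.41 FPKM in HuES53 and 2.30 FPKM in HuES64, a difference of -0.45 with an interval of -1.06 to 0.16. Its locus covers that of RAD51D and that of RFFL, which stood at 9.96 FPKM in HuES53 and 7.63 FPKM in HuES64, so its value cannot be separated from theirs. Both stayed lower in HuES53 with TPM scaling (-0.17 for XRCC6BP1 and -0.33 for RAD51L3-RFFL). Without them the median of the repair genes was 0.10.

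Differences between the lines varied with GC content and transcript length, in the repair genes and in all genes. Spearman's rho between the difference and the GC content was -0.50 over the 35 repair genes and -0.50 over 11917 genes with a matched transcript, a description across genes of the same libraries. Of 18 repair genes under 45% GC, all but BRCA1 and XRCC6BP1 (16 genes) were higher in HuES53, with a median of 0.15, against a median of 0.28 for all 3510 genes in that range, 80.1% of which were higher there. Of 17 repair genes at or above 45% GC, 8 were higher in HuES53, with a median of -0.01, against -0.07 for 8407 genes. The rank correlation with transcript length was 0.53 over the 35 repair genes and 0.31 over all genes with a matched transcript. With the trend of all genes removed, the median of the repair genes was 0.00 and 18 of 35 were above 0, against 50.0% of all genes, and 16 of the 35 changed sign. The rank correlation with GC content was then 0.33 over the repair genes and 0.00 over all genes, so that removal of the trend of all genes left the repair genes with a relation of the opposite sign. BRCA2 then stood at 0.12, MSH3 at 0.12 and FANCM at -0.10, all closer to 0 than with the deposited values. The extremes were XRCC6BP1 at -0.50 and RAD54L2 at 0.32.

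**Figure D3:**
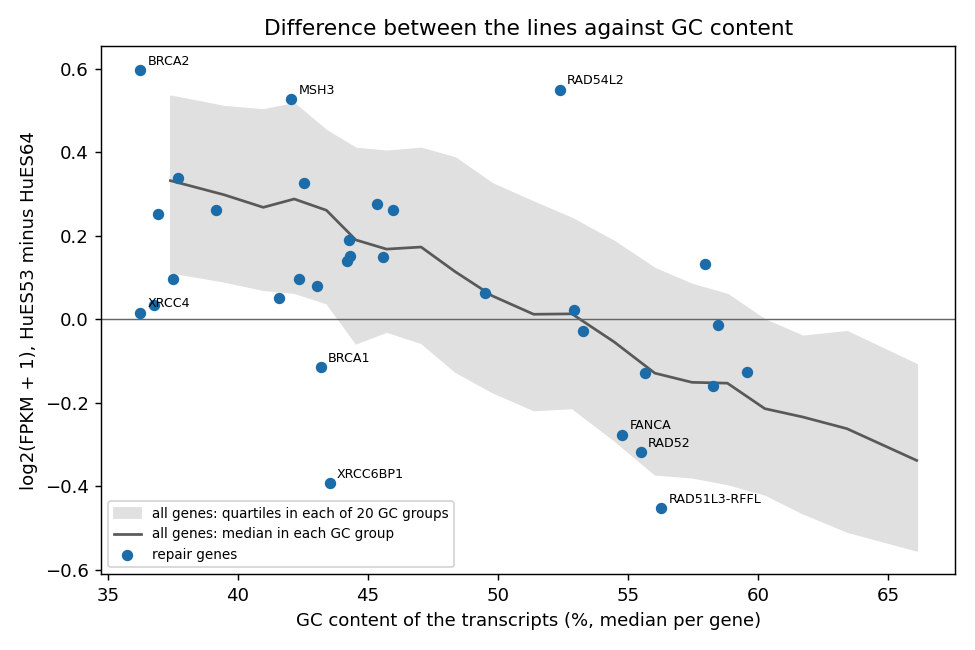
Difference of the repair genes named in the text (points, log2(FPKM + 1), HuES53 minus HuES64) against the GC content of its transcripts in percent. The line and the band give the median and the quartiles of all genes in 20 equal groups by GC content. The points fall with GC content along the line, and RAD54L2, above the band, and BRCA1 and XRCC6BP1, below it, are among the points outside it.

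Other repair genes were described by 7 lists. Of 136 tested, 73 were higher in HuES53, 97 with TPM scaling, with a median of 0.03, the same as for all genes. With the trend removed, 48 of the 125 with a matched transcript were higher there, and the median was -0.07. Among 19 other Fanconi genes 12 were higher in HuES53, 13 with TPM scaling, with a median of 0.15. With the trend removed, 6 of 14 were higher there and the median was -0.045. They ran from C1orf86 (FAAP20), a core-complex partner at 62.4 FPKM in HuES53 and 127 FPKM in HuES64 and the only 2-fold difference towards HuES64 (-1.01), to the translesion polymerase REV1 at 8.21 FPKM in HuES53 and 5.83 FPKM in HuES64. MAD2L2, a subunit of translesion polymerase zeta, was their highest, at 376 FPKM in HuES53 and 488 FPKM in HuES64, and REV3L, its catalytic partner, their lowest at 1.43 FPKM in HuES53 and 0.872 FPKM in HuES64.

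Of 38 other recombination genes, 22 were higher in HuES53, 29 with TPM scaling, and their median was 0.08. SHFM1, a small partner of BRCA2, was the highest at 509 FPKM in HuES53 and 539 FPKM in HuES64, and EME2, a nuclease subunit gene below a mean of 1 FPKM and so not among the 38, the lowest at 0.425 FPKM in HuES53 and 0.231 FPKM in HuES64. After BARD1, the largest differences were those of the helicase gene WRN (7.13 FPKM in HuES53 and 3.54 FPKM in HuES64, 0.84) and RMI1 (9.37 FPKM in HuES53 and 5.29 FPKM in HuES64, 0.72), a partner of the BLM helicase. SLX1B and SLX1A, near-identical copies of a nuclease gene, stood at 22.7 FPKM in HuES53 and 32.2 FPKM in HuES64 and at 22.3 FPKM in HuES53 and 31.5 FPKM in HuES64, and fragments of these copies cannot be told apart. With the trend removed BARD1 stood at 0.87 and WRN at 0.42, while 13 of 33 genes were higher in HuES53 and the median was -0.02.

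Of 16 other mismatch repair genes, 10 were higher in HuES53, 12 with TPM scaling and 9 with the trend removed, and their median was 0.04, or 0.055 with the trend removed. They ran from RFC4 (68.5 FPKM in HuES53 and 88.5 FPKM in HuES64) to MCM8 (14.4 FPKM in HuES53 and 9.34 FPKM in HuES64). PCNA, the sliding clamp, was the highest at 231 FPKM in HuES53 and 226 FPKM in HuES64, and the helicase gene MCM9 the lowest at 2.62 FPKM in HuES53 and 2.19 FPKM in HuES64. Of 18 other genes of end joining and single-strand breaks, 9 were higher in HuES53, 13 with TPM scaling, and their median was 0.00. With the trend removed, 7 of 17 were higher there and the median was -0.14. They ran from the polymerase gene POLL (14.9 FPKM in HuES53 and 26.1 FPKM in HuES64, -0.77) to RIF1, which protects ends from resection (14.4 FPKM in HuES53 and 8.37 FPKM in HuES64, 0.72), with PARP1, the sensor of strand breaks, highest at 178 FPKM in HuES53 and 146 FPKM in HuES64. The nuclease gene DCLRE1C, below a mean of 1 FPKM and so not among the 18, was the lowest at 1.24 FPKM in HuES53 and 0.737 FPKM in HuES64.

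Of 17 damage signalling genes, 11 were higher in HuES53, 14 with TPM scaling but 5 with the trend removed, and their median was 0.04, or -0.06 with the trend removed. The kinase genes ATM (3.52 FPKM in HuES53 and 2.79 FPKM in HuES64) and ATR (4.08 FPKM in HuES53 and 2.90 FPKM in HuES64) stood below their target kinases CHEK2 (59.3 FPKM in HuES53 and 60.0 FPKM in HuES64) and CHEK1 (38.8 FPKM in HuES53 and 36.8 FPKM in HuES64). H2AFX, the histone variant phosphorylated at breaks, was the highest at 95.2 FPKM in HuES53 and 99.8 FPKM in HuES64. TIMELESS (21.5 FPKM in HuES53 and 26.6 FPKM in HuES64) and MDC1 (14.5 FPKM in HuES53 and 10.8 FPKM in HuES64) were the extremes. Base and nucleotide excision genes were the only one of the 7 lists with a median below 0 with the deposited values, at -0.15, which was 0.09 with TPM scaling and -0.19 after removal of the trend. After that removal 5 of the 7 medians were below 0. Higher in HuES53 were 7 of 24, with 13 under TPM scaling and 5 with the trend removed. MPG, a DNA glycosylase gene, had 51.0 FPKM in HuES53 and 88.7 FPKM in HuES64. NEIL3, another glycosylase gene and the opposite extreme, stood at 6.58 FPKM in HuES53 and 3.73 FPKM in HuES64. APEX1, the main endonuclease for sites that have lost a base, was the highest at 192 FPKM in HuES53 and 247 FPKM in HuES64, and ERCC6 the lowest at 1.49 FPKM in HuES53 and 1.29 FPKM in HuES64.

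**Figure D4:**
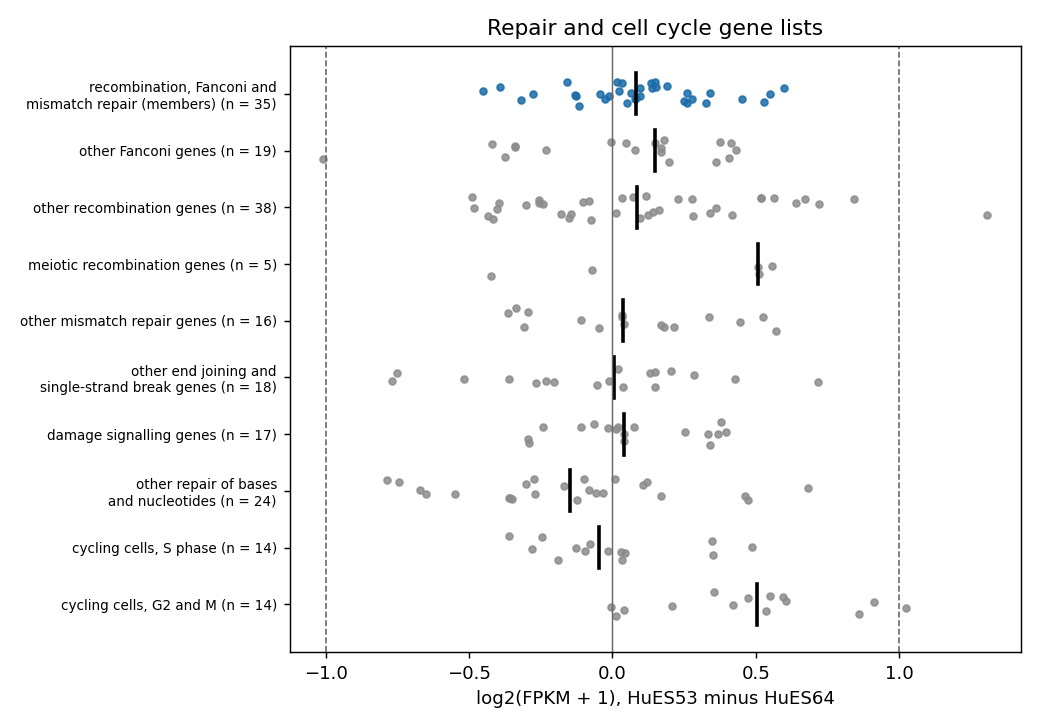
Differences of single genes (points, log2(FPKM + 1), HuES53 minus HuES64) in the repair genes described here, in 7 lists of other repair genes and in 2 lists of cell cycle genes, for genes that reached a mean of 1 FPKM. Black bars are list medians and dashed lines mark 2-fold. The repair genes lie between -0.45 and 0.60, BARD1 and C1orf86 are the points beyond 2-fold in the repair lists, and the G2 and M list lies to the right.

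Many of these genes are most active in dividing cells, so cell cycle genes were set beside them. The 14 genes of S phase had a median difference of -0.05, or 0.20 with TPM scaling, and summed levels of 866 FPKM in HuES53 and 874 FPKM in HuES64. For the 14 genes of G2 and mitosis the median was 0.50 and the summed levels were 1407 FPKM in HuES53 and 1106 FPKM in HuES64. Of these, 13 were higher in HuES53, and 14 with TPM scaling. BUB1B stood at 72.8 FPKM in HuES53 and 35.3 FPKM in HuES64 and TOP2A at 102 FPKM in HuES53 and 53.9 FPKM in HuES64. With the trend removed the medians were -0.02 for S phase and 0.28 for G2 and mitosis. The part of the cell cycle in the differences of BRCA2 and BARD1 was not tested.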

How the data were processed

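The authors deposited 1 table of FPKM values with 25593 rows, 1 column for each of HuES53 and HuES64, a symbol and a locus. Poly(A) RNA and a TruSeq RNA kit were used per the labels' protocols. Per the submitters' processing notes, TopHat2 2.0.4 and Cufflinks 2.0.2 were used, with no role given. For build, annotation, strand setting and read filters, the sources used here give nothing.

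The 136 rows of chromosome Y were left out and rows that share a symbol summed (21 symbols). No member had repeated rows. Differences are log2(FPKM + 1) in HuES53 minus HuES64, wherever the mean of the lines reached 1 FPKM. The pseudocount shrinks the folds of low genes. FPKM are not counts and there is 1 library per line, so no test was made. Loci are printed counting from 1.

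Depth was found from the steps of olfactory receptor genes with loci under 1100 bases, for an assumed fragment length of 200 bases. Of the values under 6 fragments, 18 of 21 in HuES53 and 9 of 12 in HuES64 lay within 3% of a whole number. The step was the best of a search, so counting intervals are approximate. GC content and length are medians over the transcripts of GENCODE release 29, matched by symbol for 35 of 35 members and 86.4% of genes tested. Medians over 20 bins of GC content and 20 of length were subtracted in 5 rounds, and this was checked on simulated data. Python 3.11.15, numpy 2.4.6 and pandas 2.3.3 were used.

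Some members and neighbours are not reported here by name; they stay in the counts and medians. From the lists of other repair genes the text names the highest, the lowest, the extremes of difference and any 2-fold gene, and it names some of the neighbours within 1000 bases. Further partners of the members were named from the lists after their values were seen. Members and lists were chosen with earlier results of these data known. The symbols SWSAP1, PARPBP, NABP1, NABP2 and MEIOB of the lists were not used here.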

Additional observations from a re-analysis of the deposited data

How the results depend on the processing

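No paired analysis was possible because each line has 1 library. No member was 2-fold different in either direction under any of the 12 alternatives. The median difference of the repair genes, 0.08, was 0.32 with TPM scaling and -0.038 when the trend was taken from the longest transcript, an alternative chosen after seeing the data. It lay between 0.00 and 0.15 under the other alternatives. The number higher in HuES53, 24 of 35, was 15 for a mean of 5 FPKM or more, where 24 genes were tested. Of the single differences, 7 changed sign with TPM scaling, 16 when the trend was taken from the median transcript and 13 from the longest. With at least 5 FPKM, 24 genes were detected in HuES53 and 25 in HuES64. Low transcripts limit the set: counting error is largest for RAD51L3-RFFL, RAD52 and FANCC.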
